A study of Mus musculus with 6 samples.

Results

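Skeletal muscle stores glucose as glycogen and breaks it down to fuel contraction. Glycogen is built from UDP-glucose on a glycogenin primer by glycogen synthase and a branching enzyme. It is degraded by glycogen phosphorylase, which phosphorylase kinase switches on. Protein phosphatase 1, held on the glycogen particle by targeting subunits, opposes that switch and activates the synthase. Insulin promotes storage and adrenaline and contraction promote breakdown, largely through phosphorylation of these enzymes. The 9 genes described here encode the muscle set of these proteins: Gys1, Gyg, Gbe1 and Ugp2 for synthesis, Pygm, Phka1 and Phkg1 for breakdown, and Ppp1r3a and Ppp1r3c for phosphatase targeting. They were taken by symbol, with earlier results of these data known, from the 53342 genes of the deposited expression table. Each symbol matched 1 row.

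RNA of skeletal muscle from male mice was sequenced in 6 libraries, 2 in each of 3 genotypes. LTKOFstL/L mice carry floxed Irs1, Irs2 and Fst alleles with an albumin-driven Cre, a promoter active in hepatocytes, so the genes are deleted in the liver and the muscle itself is not targeted. Their Fst allele has loxP sites around exons 2 to 5. LDKO mice carry floxed Irs1 and Irs2 with the same Cre and keep hepatic Fst. Control mice are labelled Loxp, and which floxed alleles they carry is not stated. Irs1 and Irs2 encode the substrates that relay the insulin receptor signal, and Fst encodes follistatin, a secreted antagonist of activins and myostatin. High fat feeding is given for each sample, whereas the text on the series has chow between 5 and 16 weeks, so the diet is not settled. Nothing says whether the 2 libraries of a genotype come from separate animals, so p-values measure the spread between these libraries, which may be technical.

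Values are log2 expression centred on the median of the 6 libraries for each gene, so they compare libraries within a gene and not levels between genes. Read totals are not in the files, and depth is unknown. The rounding of the stored numbers places all 9 genes at 8 or more on the uncentred log2 scale in their lowest library, which is at least 256 scaled read units, and Pygm at 16 or more. All 9 passed the level filter (4 on that scale in at least 2 libraries), among 16323 genes tested. Of 10 skeletal muscle markers, 9 also stood at 8 or more, Myod1 being the exception. Pancreatic acinar genes were high in the Control libraries, with list means of 11.86 and 7.86 there, against −1.95 and −1.92 in LTKOFstL/L and 0.96 and −1.25 in LDKO. Slow fibre markers averaged −0.15 and −0.10 in LTKOFstL/L and 0.28 and 0.63 in LDKO, against 0.11 and −0.31 in Control. By the test 1 of these 9 was higher in LDKO than in Control, and 2 were lower in LTKOFstL/L than in LDKO. The fast fibre list averaged between −0.14 and 0.24 in every library. By the test 1 of 10 was higher in LTKOFstL/L than in Control and 1 of 10 higher than in LDKO. Over all tested genes 0.282% passed in LDKO against Control, 2.10% in LTKOFstL/L against Control and 2.51% in LTKOFstL/L against LDKO. Of the macrophage, Schwann cell and endothelial markers 0 passed in any comparison.

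None of the 9 glycogen genes passed the test (limma, adjusted p under 0.05) in any of the 3 comparisons. The background is that 2.10% of tested genes passed in LTKOFstL/L against Control, 0.282% in LDKO against Control and 2.51% in LTKOFstL/L against LDKO. At an unadjusted p under 0.05 the count of glycogen genes was also 0 of 9 each time, against 15.2%, 6.72% and 19.0% of tested genes in the same order of comparisons. In each comparison 8 of the 9 95% intervals lay within a 2-fold change in either direction, and Ppp1r3a was the exception every time. The median change over the 9 genes was −0.05 for LTKOFstL/L against Control, beside 0.00 over all tested genes. It was −0.11 for LDKO against Control, beside 0.00, and 0.08 for LTKOFstL/L against LDKO, beside 0.01. The authors' deposited tables of differential genes, which hold genes changed at least 2-fold, list 0 of the 9 in any comparison. In whole muscle, fewer fibres of a type and less RNA per fibre cannot be told apart.

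**Figure D1:**
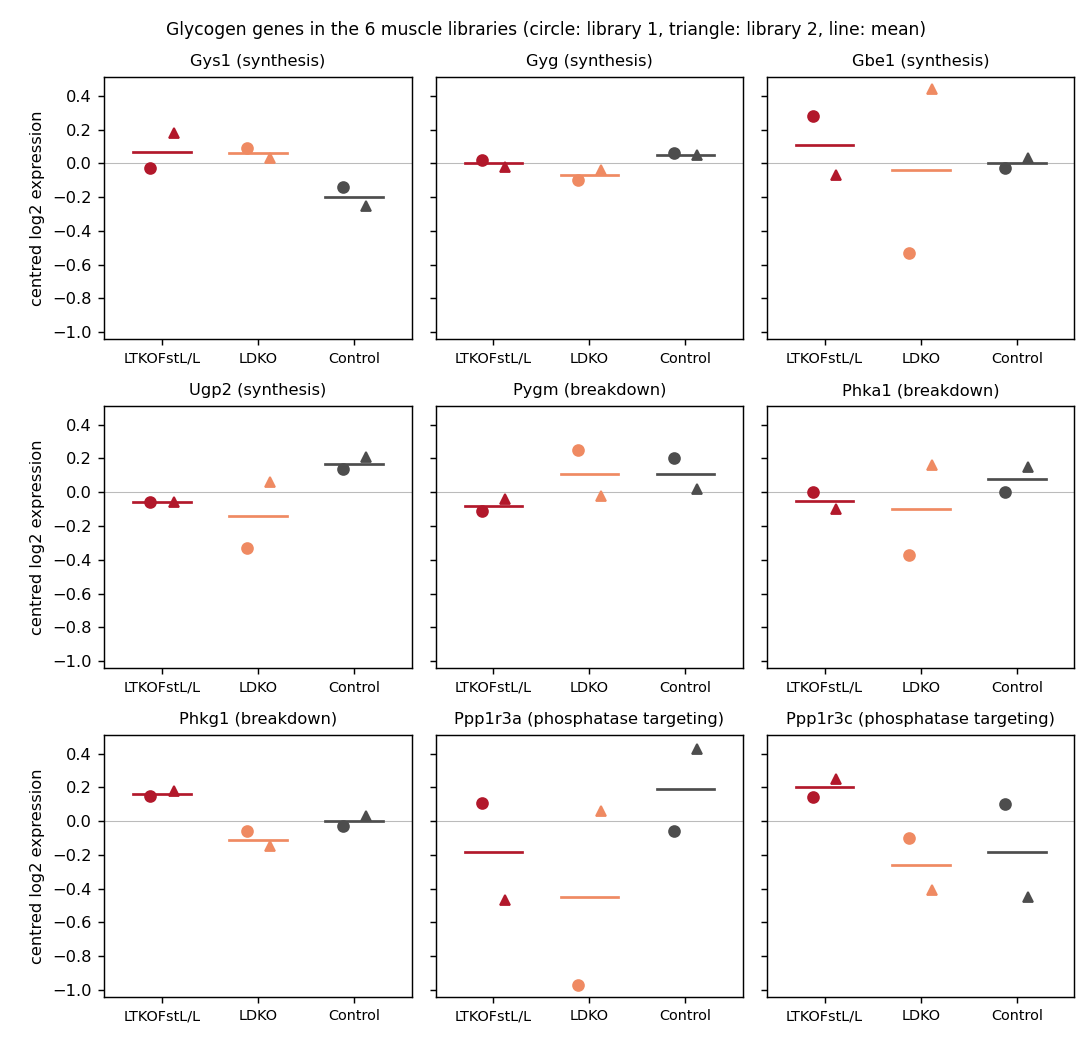
Centred log2 expression (vertical axis, the same scale in all panels) of each glycogen gene in the LTKOFstL/L, LDKO and Control libraries. Circles are library 1, triangles library 2 and lines the mean of the 2. Ppp1r3a covers 1.40 between its lowest and highest library, Gyg only 0.16.

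Among the genes of synthesis, Gys1 encodes the muscle isoform of glycogen synthase (ENSMUSG00000003865, GRCm38 chromosome 7, 45434844 to 45456619, plus strand). Its centred values were −0.03 and 0.18 in LTKOFstL/L and 0.09 and 0.03 in LDKO, against −0.14 and −0.25 in Control. Every library of the Cre-carrying genotypes thus stood above both Control libraries. The difference from Control was 0.27 ± 0.15 (SE, 95% interval −0.07 to 0.61, adjusted p = 0.45) in LTKOFstL/L and 0.26 ± 0.15 (−0.08 to 0.60, adjusted p = 0.8) in LDKO. Both comparisons use the same 2 Control libraries. LTKOFstL/L and LDKO differed by 0.01, with an interval of −0.33 to 0.35.

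Gyg encodes glycogenin, the protein that starts a glycogen chain by attaching glucose to itself (ENSMUSG00000019528, chromosome 3, 20122084 to 20155317, minus strand). It was the steadiest of the 9. It stood at 0.02 and −0.02 in LTKOFstL/L and −0.10 and −0.04 in LDKO, against 0.06 and 0.05 in Control. Although those groups did not overlap, the differences were −0.05 for LTKOFstL/L against Control (interval −0.36 to 0.26) and −0.12 for LDKO against Control (−0.44 to 0.19), with adjusted p of 0.894 and 0.883. LTKOFstL/L against LDKO gave 0.07 (−0.24 to 0.38).

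Gbe1 encodes the branching enzyme, which adds the side chains of glycogen (ENSMUSG00000022707, chromosome 16, 70313949 to 70569716, plus strand). Its values were 0.28 and −0.07 in LTKOFstL/L and −0.53 and 0.44 in LDKO, against −0.03 and 0.03 in Control. The LDKO pair enclosed all the other libraries. The differences were 0.11 ± 0.30 for LTKOFstL/L against Control, −0.04 ± 0.30 for LDKO against Control and 0.15 ± 0.30 for LTKOFstL/L against LDKO (SE), with adjusted p between 0.831 and 0.982.

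Ugp2 encodes UDP-glucose pyrophosphorylase, which makes the glucose donor for the synthase (ENSMUSG00000001891, chromosome 11, 21321138 to 21371201, minus strand). It was at −0.06 in both LTKOFstL/L libraries and at −0.33 and 0.06 in LDKO, against 0.14 and 0.21 in Control. Both Control libraries were the highest of the 6. The difference from Control was −0.23 ± 0.17 in LTKOFstL/L (interval −0.63 to 0.16, adjusted p = 0.581) and −0.31 ± 0.17 in LDKO (−0.70 to 0.09, adjusted p = 0.8). The LDKO difference was −0.11 without LDKO 1 and −0.50 without LDKO 2, and neither passed (adjusted p = 0.999 and 0.22). Wherever a library is left out, the lone library of that genotype is assumed to vary like those of the other genotypes, so such p-values rest on spread that it did not show itself.

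Of the breakdown genes, Pygm encodes muscle glycogen phosphorylase, the enzyme missing in McArdle disease (ENSMUSG00000032648, chromosome 19, 6384399 to 6398459, plus strand). It stood at −0.11 and −0.04 in LTKOFstL/L and 0.25 and −0.02 in LDKO, against 0.20 and 0.02 in Control. The LTKOFstL/L libraries were the lowest of the 6. LTKOFstL/L differed from Control by −0.19 ± 0.16 (SE, interval −0.56 to 0.18, adjusted p = 0.644), and from LDKO by the same −0.19 ± 0.16 (adjusted p = 0.556). LDKO against Control gave 0.00, with an interval of −0.37 to 0.37.

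Phosphorylase kinase is built of regulatory alpha and beta subunits, a catalytic gamma subunit and calmodulin as its delta subunit. Phka1 encodes the muscle alpha subunit (ENSMUSG00000034055, chromosome X, 102513975 to 102644246, minus strand). Its values were 0.00 and −0.10 in LTKOFstL/L and −0.37 and 0.16 in LDKO, against 0.00 and 0.15 in Control. Here too 1 LDKO library was the lowest and the other the highest of the 6. The differences were −0.13 ± 0.20, −0.18 ± 0.20 and 0.05 ± 0.20 (SE) for LTKOFstL/L against Control, LDKO against Control and LTKOFstL/L against LDKO, with adjusted p between 0.815 and 0.913.

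Phkg1 encodes the muscle gamma subunit, which carries the kinase activity (ENSMUSG00000025537, chromosome 5, 129863421 to 129898549, minus strand). It was at 0.15 and 0.18 in LTKOFstL/L and −0.06 and −0.15 in LDKO, against −0.03 and 0.03 in Control. Alone with Gyg, it had no overlap between any pair of genotypes, with LTKOFstL/L highest and LDKO lowest. How many of all tested genes separate in every pair was not counted. LTKOFstL/L was higher than LDKO in mean by 0.27 ± 0.13 (SE, interval −0.04 to 0.58, unadjusted p = 0.0823 and adjusted p = 0.33 in limma). Against Control the difference was 0.16 ± 0.13 in LTKOFstL/L (adjusted p = 0.631) and −0.11 ± 0.13 in LDKO (adjusted p = 0.895). The annotated span of Phkg1 reaches upstream of the RefSeq start used for its promoter.

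Ppp1r3a encodes the large muscle subunit that binds protein phosphatase 1 to glycogen and the sarcoplasmic reticulum (ENSMUSG00000042717, chromosome 6, 14713977 to 14755274, minus strand). It varied most of the 9, with 0.11 and −0.47 in LTKOFstL/L and −0.97 and 0.06 in LDKO, against −0.06 and 0.43 in Control. All 3 groups overlapped. The difference from Control was −0.36 ± 0.36 in LTKOFstL/L (interval −1.21 to 0.49, adjusted p = 0.703) and −0.64 ± 0.36 in LDKO (−1.49 to 0.21, adjusted p = 0.8). Both values turn on single libraries. The LTKOFstL/L value was −0.65 with only its second library and −0.07 with only its first, and −0.61 without Control 1 and −0.12 without Control 2. The LDKO value was −0.13 without LDKO 1 and −1.15 without LDKO 2, and −0.89 without Control 1 and −0.39 without Control 2. LTKOFstL/L against LDKO gave 0.28 (interval −0.58 to 1.13), and its sign turned without LDKO 1 (−0.24) and without LTKOFstL/L 1 (−0.01).

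Ppp1r3c encodes protein targeting to glycogen, a smaller targeting subunit found in several tissues (ENSMUSG00000067279, chromosome 19, 36731731 to 36736653, minus strand). It stood at 0.14 and 0.25 in LTKOFstL/L and −0.10 and −0.41 in LDKO, against 0.10 and −0.45 in Control. The LTKOFstL/L libraries were the highest of the 6, and Control 1 lay just under them. LTKOFstL/L was higher than LDKO in mean by 0.45 ± 0.21 (SE, interval −0.05 to 0.96, or 0.96- to 1.94-fold), with the smallest adjusted p of the 9 genes in any comparison (unadjusted p = 0.0721 and adjusted p = 0.311 in limma). Against Control the difference was 0.37 ± 0.21 in LTKOFstL/L (interval −0.13 to 0.88, adjusted p = 0.481). It was 0.65 without Control 1 and 0.09 without Control 2 (adjusted p = 0.378 and 0.916). LDKO against Control gave −0.08 (−0.59 to 0.43).

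**Figure D2:**
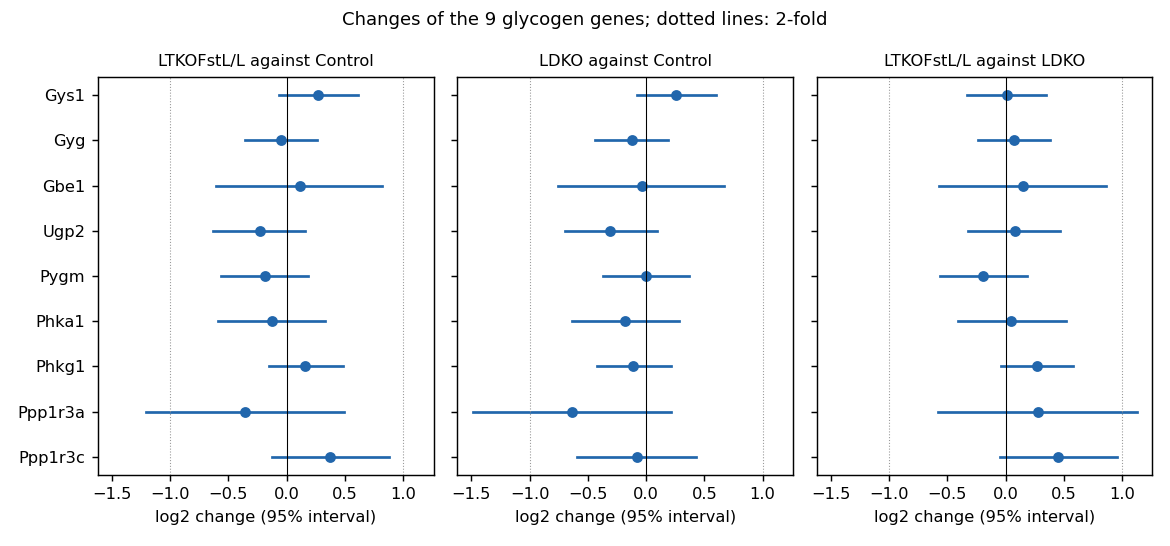
Log2 changes (points) with 95% intervals (bars) of the 9 glycogen genes for LTKOFstL/L against Control, LDKO against Control and LTKOFstL/L against LDKO. A positive value means a higher mean in the genotype named first, and dotted lines mark a 2-fold change. Every interval includes 0, and only those of Ppp1r3a cross a dotted line.

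Groups without overlap were common in the whole table and say little here. In LTKOFstL/L against Control 7 of the 9 glycogen genes did not overlap, 3 higher and 4 lower, where 50.0% of tested genes did not. In LDKO against Control it was 4 of 9, 1 higher and 3 lower, where 33.4% of tested genes did not overlap. In LTKOFstL/L against LDKO it was 4 of 9, 3 higher and 1 lower, with a background of 49.5%.

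The promoters of the 3 genes with the smallest adjusted p (Ppp1r3c, Phkg1 and Gys1) are shown as the control regions of the genes nearest to a difference, none of which passed. RefSeq windows (GRCm38.p6) matched all 9 genes. Each piece runs 5′ to 3′ on the gene's strand, within the 250 bases before the RefSeq start and outside annotated exons. Capitals mark matches on either strand to the E-box CANNTG, bound by myogenic and other helix-loop-helix factors, or to ACGTG, the core of the hypoxia response element, which can overlap an E-box. The pieces are chr19:36736654-36736854 (minus strand, 201 bases) for Ppp1r3c, chr5:129879089-129879338 (minus strand, 250 bases) for Phkg1 and chr7:45434710-45434838 (plus strand, 129 bases) for Gys1.
Ppp1r3c: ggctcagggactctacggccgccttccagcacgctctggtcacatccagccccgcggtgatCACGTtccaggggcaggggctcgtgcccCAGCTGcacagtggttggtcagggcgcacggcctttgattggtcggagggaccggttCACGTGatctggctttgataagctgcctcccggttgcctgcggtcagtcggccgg
Phkg1: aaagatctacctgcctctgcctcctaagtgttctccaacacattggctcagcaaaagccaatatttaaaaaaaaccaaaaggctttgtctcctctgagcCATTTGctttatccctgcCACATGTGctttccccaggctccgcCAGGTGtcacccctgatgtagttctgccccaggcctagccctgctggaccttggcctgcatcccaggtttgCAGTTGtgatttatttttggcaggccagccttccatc
Gys1: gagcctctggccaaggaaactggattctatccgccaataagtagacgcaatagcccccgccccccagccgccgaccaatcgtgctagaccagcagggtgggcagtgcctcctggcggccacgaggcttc
The Ppp1r3c piece held 2 E-boxes and 3 matches to ACGTG, 2 of them the opposite strands of 1 E-box, where 59.2% and 13.0% of 32851 RefSeq windows cut to the same positions held at least 1. The Phkg1 piece held 5 E-boxes, beside 66.2% of windows with at least 1, and no ACGTG. The Gys1 piece held neither (42.5% and 9.97% of windows did). None of the 3 pieces matched the cAMP response element TGACGTCA, the forkhead element GTAAACA or TATAAA. A match is a description of these letters and not a binding site, and the absence of a match says only that these letters are not in the piece.

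The LDKO libraries differed more from each other than the libraries of the other genotypes did. The median absolute difference between the 2 libraries of a genotype, over the 9 genes, was 0.10 in LTKOFstL/L, 0.31 in LDKO and 0.11 in Control. Over the 7549 tested genes at 8 or more in their lowest library, it was 0.15, 0.26 and 0.17 for the same genotypes. LDKO 1 was below LDKO 2 by 1.03 for Ppp1r3a, 0.97 for Gbe1, 0.53 for Phka1 and 0.39 for Ugp2. It was above LDKO 2 by 0.31 for Ppp1r3c and 0.27 for Pygm. Differences beyond 0.5 were seen in 3 of the 9 genes in LDKO, beside 19.9% of those 7549 genes. The 3 genes have longest annotated transcripts of 6965 bases (Ppp1r3a), 3734 bases (Gbe1) and 6115 bases (Phka1), whereas that of Gys1, which differed by 0.06, has 3678 bases. Whether transcript length has a part in the difference was not tested.

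**Figure D3:**
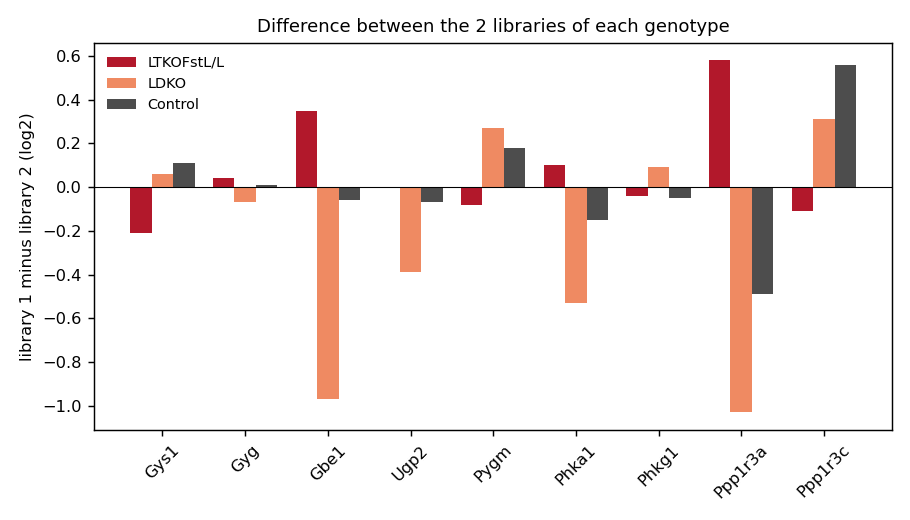
Difference in log2 expression between library 1 and library 2 (vertical axis) of LTKOFstL/L, LDKO and Control muscle for each glycogen gene. The longest bars are the LDKO values of Ppp1r3a (−1.03) and Gbe1 (−0.97).

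With LDKO 1 as the only LDKO library, 4 of the 9 glycogen genes differed most from the Control mean, all of them lower. These 4 were Ppp1r3a (−1.15), Gbe1 (−0.53), Ugp2 (−0.50) and Phka1 (−0.44). With LDKO 2 as the only LDKO library, Ppp1r3a was at −0.13 and Ugp2 at −0.11. Gbe1 was then at 0.44 and Phka1 at 0.08, in the opposite direction. A single library shows no spread of its own, so only sizes are given here.

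The rest of the pathway was covered by a list of 36 other genes, of which 35 were tested and Ppp1r3g was under the level filter. In LTKOFstL/L against LDKO 3 of 35 rose and 0 fell, where 2.51% of all tested genes passed. All 3 had groups that did not overlap, as did 49.5% of all tested genes. An unadjusted p under 0.05 was seen for 13 of 35 there, beside 19.0% of all tested genes. In LTKOFstL/L against Control 0 of 35 passed in limma, with 6 at an unadjusted p under 0.05, beside 15.2% of all tested genes. In LDKO against Control 0 of 35 passed, with 4 at an unadjusted p under 0.05, beside 6.72%. The median change of the 35 was 0.30 for LTKOFstL/L against LDKO, 0.04 for LTKOFstL/L against Control and −0.16 for LDKO against Control.

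Calm2, which encodes calmodulin, the calcium-sensing delta subunit of phosphorylase kinase and a partner of many other proteins, rose by 1.69 ± 0.29 in LTKOFstL/L against LDKO (SE, adjusted p = 0.0351). Its centred values were 0.53 and 0.44 in LTKOFstL/L and −1.43 and −0.98 in LDKO, with −0.43 and 0.43 in Control. The Control libraries lay between, and the difference of LDKO from Control was −1.20 ± 0.29 (unadjusted p = 0.0041 and adjusted p = 0.421 in limma). The authors' deposited tables list Calm2 at −1.20 for LDKO against Control and at 1.69 for LTKOFstL/L against LDKO. Calm3 encodes the same protein and stood at 0.68 in LTKOFstL/L against LDKO (adjusted p = 0.0556), and reads may be shared between near-identical copies. The other kinase subunit genes on the list, Phkb, Phka2 and Phkg2, stood at 0.19, −0.59 and −0.42, none of which passed.

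Prkag3 encodes the gamma subunit of AMP-activated kinase found in fast glycolytic fibres, where variants of it raise muscle glycogen in pigs. It rose by 1.05 ± 0.19 in LTKOFstL/L against LDKO (SE, adjusted p = 0.0434), with 0.85 and 0.69 in LTKOFstL/L and −0.02 and −0.53 in LDKO, and 0.02 and −0.05 in Control. Hk2, the insulin-responsive hexokinase that traps glucose in the fibre, rose by 0.86 ± 0.17 (SE, adjusted p = 0.049), with 0.60 and 0.90 in LTKOFstL/L and −0.22 and 0.01 in LDKO, and −0.04 and −0.01 in Control. For both genes the LTKOFstL/L libraries stood apart from the other 4. Prkag3 is listed at 1.05 for LTKOFstL/L against LDKO in the authors' deposited tables. Against Control, Prkag3 and Hk2 both stood 0.78 higher in LTKOFstL/L, with adjusted p of 0.113 and 0.0725. With only the LTKOFstL/L and Control libraries fitted both passed (adjusted p = 0.0195 and 0.0278). The calls of Calm2, Prkag3 and Hk2 in LTKOFstL/L against LDKO depend on the libraries and the prior. Of the 3, 0 stood without LTKOFstL/L 1, without LTKOFstL/L 2, with 1 prior for all levels or with no level filter. Only Prkag3 stood without LDKO 1, and only Calm2 without Control 1 or without Control 2. All 3 stood without LDKO 2. Fibroblast and tendon markers shifted in the same contrast, and their part in these values was not tested. The 8 genes averaged 0.65 and 0.35 in LTKOFstL/L and −0.54 and −0.91 in LDKO. By the test 4 of 8 were higher in LTKOFstL/L and 0 lower, where 2.51% of all tested genes passed. Fibre type markers also differed there, with 2 of 9 slow fibre genes lower in LTKOFstL/L (list median −0.46) and 1 of 10 fast fibre genes higher (list median 0.00). Their part in the Prkag3 value was not tested.

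Pygl and Gys2 stood out in single libraries. Pygl, the liver phosphorylase, was at 1.75 and 0.49 in LTKOFstL/L and −0.44 and −0.04 in LDKO, against −0.67 and 0.04 in Control. Its difference was 1.44 ± 0.46 against Control (SE, adjusted p = 0.194). Against LDKO it was 1.36 ± 0.46 (adjusted p = 0.17). With LTKOFstL/L 1 left out these values were 0.81 and 0.73. Gys2, the liver glycogen synthase, which fat cells also express, was at 1.39 and 0.18 in LTKOFstL/L and −0.44 and −0.18 in LDKO, against −1.16 and 0.63 in Control. It did not pass (adjusted p = 0.478 and 0.382 in the same comparisons). The authors' deposited tables list both in LTKOFstL/L against Control, Pygl at 1.44 and Gys2 at 1.05. Both are also listed in LTKOFstL/L against LDKO, at 1.36 and 1.10.

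LTKOFstL/L 1 was the highest library for Pygl, for Gys2 and for the mean of the fat cell markers. The 9 adipocyte markers averaged 1.72 and 0.71 in the LTKOFstL/L libraries and −0.64 and 0.08 in LDKO, against −0.42 and −0.26 in Control. All 9 were tested and above the floor in every library. By the test 1 was higher in LTKOFstL/L in each of the comparisons with Control and with LDKO. Of all tested genes 2.10% and 2.51% passed in these comparisons. The 5 liver markers averaged −0.74 and −0.11 in LTKOFstL/L and 0.01 and 0.39 in LDKO, against −0.11 and 0.83 in Control. The part of fat cell RNA in the Pygl and Gys2 values was not tested.

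**Figure D4:**
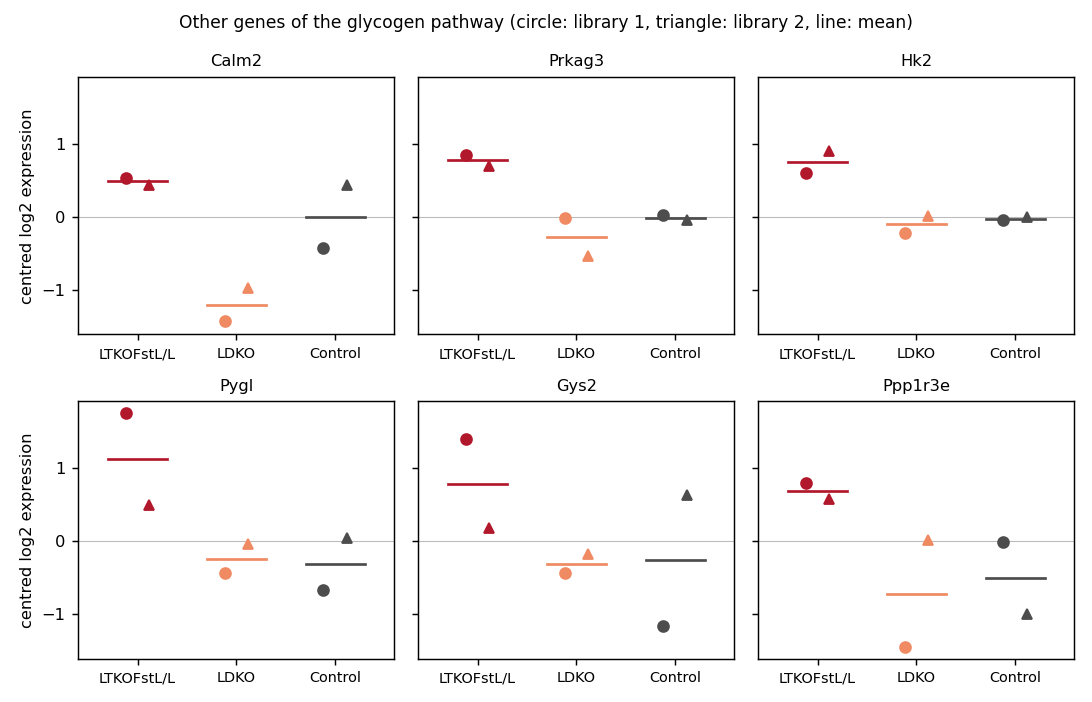
Centred log2 expression (vertical axis) of 6 other genes of the glycogen pathway in the LTKOFstL/L, LDKO and Control libraries. Circles are library 1, triangles library 2 and lines the mean. Calm2, Prkag3 and Hk2 passed in LTKOFstL/L against LDKO, and Pygl, Gys2 and Ppp1r3e are shown for their spread.

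Of the remaining genes of the list that are named here none passed. Ppp1r3e, another targeting subunit of the phosphatase, stood at 1.19 ± 0.52 in LTKOFstL/L against Control and at 1.41 ± 0.52 against LDKO (SE, adjusted p = 0.336 and 0.203). The Control difference was 1.68 without Control 1 and 0.70 without Control 2, and the LDKO difference 0.67 without LDKO 1 and 2.14 without LDKO 2. The authors' deposited tables list Ppp1r3e at 1.19 and 1.41 in these comparisons. Ppp1r3b, the targeting subunit first known from liver, was at 0.94 in LTKOFstL/L against LDKO (adjusted p = 0.356) and at −0.79 in LDKO against Control (adjusted p = 0.819). The phosphoglucomutase genes carry exchanged symbols between annotation releases. ENSMUSG00000025791, Pgm2 in the deposited table and Pgm1 in the newer name table, stood at 0.59 in LTKOFstL/L against LDKO (adjusted p = 0.0789). ENSMUSG00000029171, deposited as Pgm1, stood at 1.07 (adjusted p = 0.145) and at −0.71 in LDKO against Control (adjusted p = 0.778). This gene is listed at 1.07 for LTKOFstL/L against LDKO in the authors' deposited tables.

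The pattern of Ppp1r3c over the 6 libraries, the member with the smallest adjusted p, was compared with the 16322 other tested genes by the root mean square difference of mean-centred log2 values. The nearest were Sipa1 at 0.057, Smim27 at 0.078 and Tmub1 at 0.081. Sipa1 stood at 0.13 and 0.27 in LTKOFstL/L and −0.13 and −0.29 in LDKO, against 0.17 and −0.34 in Control. The nearest of the other glycogen genes was Phkg1 at 0.21.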

How the data were processed

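RNA was extracted with TRI Reagent and libraries were made with a SMARTer mRNA kit, per the labels' protocols, and the submitters' processing notes name mm10 as the build. Aligner, counting and normalization: not given in the sources used here. For 53342 genes the authors deposited log2 values. As judged from the values, these are library-scaled read values with a floor, centred on each gene's median. The deposited lists of differential genes hold fold changes and corrected p-values, which per the file headers come from an AC test. They served only to look up genes.

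The uncentred level was read from ties at the floor or from the rounding step of the stored numbers, which brackets it (under 4, 4 to 8, 8 to 16, or 16 and over in the lowest library). Genes at 4 or more in at least 2 libraries were tested. limma 3.58.1 in R 4.3.3 fitted 1 mean per genotype to all 6 libraries, with 3 residual degrees of freedom and robust empirical Bayes priors in 3 strata of each gene's lowest-library level (under 4, 4 to 8, 8 or more). Two-sided p-values were Benjamini-Hochberg adjusted over 16323 genes. The procedure was run on a simulated table with known changes of at least 2-fold, and its outcome is not reported here. Intervals use the moderated standard error and degrees of freedom. Coordinates and transcript lengths are from GENCODE M21 and promoters from RefSeq.

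The 9 genes, the list of other pathway genes, the markers and the strata were chosen with earlier results of these data known. All 9 are named. Of the other list, called genes and the 3 with the largest change in each comparison are named, and Calm3, Phkb, Phka2, Phkg2 and the gene deposited as Pgm2 were added after their values were seen. Some genes of that list are not reported here by name. Alternatives covered the prior, the level filter, the libraries fitted, the replicate block, re-centring, the acinar genes, the threshold and leaving out each library.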

Additional observations from a re-analysis of the deposited data

How the results depend on the processing

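For the 9 glycogen genes the count of calls stayed at 0 in each comparison under every alternative fixed at the start, leaving out each library included (range 0 to 0). The sign of the change held in all 14 of these settings for 8 of 9 genes in LTKOFstL/L against Control, 5 of 9 in LDKO against Control and 4 of 9 in LTKOFstL/L against LDKO. Most of the settings cannot move the change itself, so a kept sign there was fixed in advance. Only re-centring and leaving out a library of a compared genotype can alter it. The replicate block gave 0 calls in each comparison. For the 35 other pathway genes in LTKOFstL/L against Control the count was 0, against 2 with only the groups compared and 1 at a threshold of 0.10, and 0 to 2 when a library was left out. In LTKOFstL/L against LDKO it was 3, against 0 when 1 prior served all levels, 0 when the level filter was dropped, 5 when the filter was raised to 8, 1 with only the groups compared and 8 at a threshold of 0.10, and 0 to 5 when a library was left out. The replicate block left 2 of its 3 calls and lost that of Hk2 (adjusted p = 0.0637). In LDKO against Control it stayed at 0 throughout. The cause of these shifts was not tested, beyond the smaller number of genes or libraries that the settings themselves use.

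Same-numbered libraries did not deviate together in every pair of genotypes, with correlations of their deviations across 16323 genes of −0.163 for LTKOFstL/L and LDKO, −0.0371 for LTKOFstL/L and Control and 0.175 for LDKO and Control, so the numbers are not taken to pair the samples. A crossed replicate block for LTKOFstL/L against LDKO, chosen after seeing the data and fitted to those groups with 1 residual degree of freedom, called 1 of the 9 (Ppp1r3c) and 14 of the 35, beside 14.6% of all tested genes. With 2 libraries in a genotype and unknown depth, a p that misses the threshold does not show that a gene did not differ, and the intervals in the text give the sizes that remain possible.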

Other observations

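Differences between glycogen genes within a library do not depend on a constant scaling factor for that library, and are given without a test. The normalization is not stated, and a scaling that varies with level could change them. Gys1 minus Pygm, the synthase against the phosphorylase on the centred log2 scale, was 0.08 and 0.22 in LTKOFstL/L and −0.15 and 0.05 in LDKO, against −0.35 and −0.27 in Control. The 3 genotypes did not overlap in this difference, and Control was lowest. LTKOFstL/L and LDKO came as near as 0.08 and 0.05. How many other gene pairs separate in this way was not counted. Phkg1 minus Phka1, the catalytic against the alpha subunit of phosphorylase kinase, was 0.15 and 0.28 in LTKOFstL/L and 0.30 and −0.31 in LDKO, against −0.03 and −0.13 in Control. Ppp1r3c minus Ppp1r3a, the smaller against the large targeting subunit, was 0.03 and 0.72 in LTKOFstL/L and 0.86 and −0.47 in LDKO, against 0.16 and −0.89 in Control, with overlap between all genotypes.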
